A study of Mus musculus with 4 samples.

Results

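Trimethylation of lysine 36 on histone H3 (H3K36me3) was mapped by chromatin immunoprecipitation and sequencing (ChIP-seq) in mouse embryonic stem (ES) cells, and the regions described here are those that reached the end of a gene. They were chosen by position alone. An autosomal H3K36me3 region was taken if it was at most 5 kb wide, contained the annotated end of a protein-coding gene and lay more than 1 kb from the start of every protein-coding gene. In all, 1333 regions met the rule, of 31593 H3K36me3 regions in the list, which was 4.25% of the 31399 autosomal ones (95% Wilson interval 4.03 to 4.47%). They held the ends of 1492 genes. A further 427 regions passed every criterion except the width limit, and 233 regions held a gene end but lay within 1 kb of a gene start. At the limit, 70 regions were 4600 to 5000 bp wide and 83 were 5200 to 5600 bp wide.

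The study compared wild-type ES cells of the 129S1/SvImJ strain (WT, H3f3a+/+; H3f3b+/+) with cells of the same strain carrying the histone H3.3 mutation G34R (H3f3a+/G34R; H3f3b+/+). The mutant histone came from 1 targeted H3f3a copy under the endogenous promoter, after Cre had removed a wild-type minigene, so that the mutant cells kept the other H3f3a copy and both H3f3b copies. Each genotype gave 1 library for H3K36me3 and 1 for trimethylation of lysine 9 (H3K9me3), with sheared fragments of about 300 bp and single reads of 50 bp. The files analysed hold 1 list of positions per mark, pooled over both genotypes and without read values, so the depth behind a region is unknown, no comparison of WT with G34R could be made, and every interval given covers counting error only.

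H3K36me3 is laid down behind elongating RNA polymerase II, mainly by the methyltransferase SETD2, and is best known as a mark of the bodies of transcribed genes that grows denser towards their 3′ ends. At the end of a gene the transcript is cut and polyadenylated shortly downstream of a signal in the RNA, most often AAUAAA or AUUAAA, while the polymerase travels further before it is released. H3K9me3 is a mark of silent chromatin, but in ES cells it also covers the 3′ exons of many zinc finger genes, where it occurs together with H3K36me3.

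The list fitted the labelled cell type. Of 29 autosomal genes on a list of pluripotency factors, 26 carried an H3K36me3 region, and in 6 of them the end itself lay in one of the gene-end regions: Pou5f1, Nanog, Tdgf1, Nodal, Dnmt3l and Rif1. Of 29 genes of differentiated cells, 1 carried any H3K36me3 region (Pecam1, an endothelial adhesion molecule) and 0 had a marked end. Across all 21418 autosomal protein-coding genes, 35.2% were touched by an H3K36me3 region, 10.9% had their end in one and 6.97% had it in one of the gene-end regions. Among the 7539 touched genes, the end lay in any region in 30.9% (29.8 to 31.9%) and in a gene-end region in 19.8% (18.9 to 20.7%). The 6 pluripotency genes were 23.1% of the 26 marked ones (11.0 to 42.1%), an interval that contained the 19.8%.

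The ends that these regions reached are shown by their poly(A) signals, read on the gene strand from the NCBIM37 (mm9) genome. Each of the following lines gives 30 bases inside the H3K36me3 region, with the hexamer in capitals; the genes are pluripotency factors, a chromatin reader and polymerase subunits from the lists used below.

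Pou5f1: attttgttcttaAATAAAgactgggacaca

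Nanog: tagtttaaacaaAATAAAacactaatttta

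Nodal: caacccaagtctATTAAAagtctgtgacaa

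Rif1: ttaggatatataATTAAAccatttgtaaat

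Brd1: ttttatattaaaAATAAAgtgaagatttgg

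Polr2h: atgattttttttATTAAAgttttctttttc

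Polr2f: atatgtgtaaatAATAAAcctcaccctttc

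The Pou5f1 site lies at chr17:35647681-35647710 on the plus strand, with 29 bases from the first base of the hexamer to the annotated end. The Nanog site is at chr6:122664616-122664645 (plus, 24 bases), the Nodal site at chr10:60888053-60888082 (plus, 22 bases) and the Rif1 site at chr2:51977868-51977897 (plus, 24 bases). The Brd1 site is at chr15:88517732-88517761 (minus, 20 bases), the Polr2h site at chr16:20722308-20722337 (plus, 21 bases) and the Polr2f site at chr15:78982166-78982195 (plus, 27 bases). Of the 1492 gene ends, 1083 had AATAAA or ATTAAA in their last 50 bases on the gene strand (72.6%, 70.3 to 74.8%), with a median of 24 bases from the first base of the hexamer to the end. The same letters were found at 66.2% of all autosomal gene ends, at 73.6% of the ends in wider regions, at 77.0% of the ends of genes marked only in the body and at 61.1% of the ends of genes without the mark. With either hexamer counted, the share at the gene-end regions was thus above that of unmarked genes and below that of genes marked only in the body. The intervals did not overlap in either case. For AATAAA alone the share was 59.0% (56.5 to 61.5%) at the gene-end regions and 50.0% (49.2 to 50.9%) in unmarked genes, again apart. In genes marked only in the body it was 62.5% (61.2 to 63.8%), which overlapped the interval of the gene-end regions. The lower share than in these genes thus depended on the signal counted. No hexamer was found in this window for Tdgf1, Dnmt3l, Hn1, Pabpn1 or Polr2d.

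The typical region lay mostly on the upstream side of the gene end. Their median width was 1800 bp (quartiles 1000 and 3000 bp), against 1000 bp (600 and 1600 bp) in the 28049 other autosomal regions of at most 5 kb. A wide region is more likely than a narrow one to hold a given point, so part of this difference comes with the rule. Of the gene-end regions, 11.0% had the minimum width of 600 bp, against 29.6% of the others. In the 1179 regions that held the end of 1 gene, the upstream edge lay a median of 1435 bp before the end (quartiles 752.5 and 2560.5 bp), while the downstream edge lay a median of 105 bp past it (53 and 169.5 bp). Over all 1492 ends, including those that shared a region, the median distance past the end was 134 bp.

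The downstream edge followed the annotation. The list is built from bins of 200 bp, and in 999 of the 1179 regions (84.7%, 82.6 to 86.7%) the region stopped in the very bin that held the gene end. Where no other annotated gene touched the next bin, all 941 regions stopped there (99.6 to 100%), and this included all 445 with no other gene within 5 kb downstream. Where another gene did touch the next bin, 58 of 238 stopped in the end bin (24.4%, 19.4 to 30.2%) and the others went on, by a median of 769 bp past the end. All 129 regions that passed the end by more than 500 bp, and all 23 that passed it by more than 2 kb, belonged to these 238. The authors kept only bins that touched genes, so the list cannot show how far H3K36me3 ran into sequence without a gene, and the downstream edge of the mark cannot be told apart from the edge of the annotation.

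**Figure D1:**
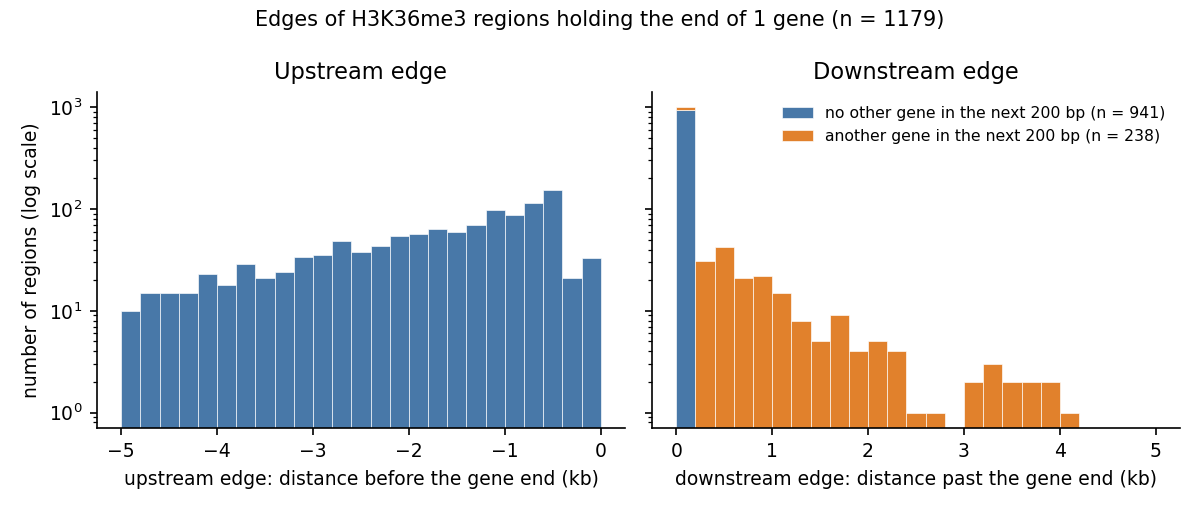
Number of H3K36me3 regions (log axis, bins of 0.2 kb) by the distance of their upstream edge before the gene end (left, kb) and of their downstream edge past it (right, kb), for the 1179 regions with the end of 1 gene, the right panel stacked by whether another annotated gene touched the next 200 bp. Upstream edges spread over the whole range of up to 5 kb, whereas all 941 downstream edges without a gene in the next 200 bp fall in the first bin.

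The regions that went farthest beyond a gene end therefore lay mostly in a neighbouring gene. The region at 2410003K15Rik (chr6:49036201-49040800) ran 4050 bp past the end after starting 549 bp before it. The region at Ndufa4l2, which encodes a mitochondrial protein related to complex I subunits, held only the last 7 bp of the gene before the end and 3992 bp after it (chr10:126954201-126958200). At 9030624J02Rik (chr7:125986201-125990400), Pam16 (chr16:4612801-4617600), an import motor subunit of mitochondria, and Naa25 (chr5:121894001-121898000), a subunit of an N-terminal acetyltransferase, the regions ran 3920, 3663 and 3613 bp past the end. In 101 of the 1179 regions (8.57%), more of the region lay past the end than before it, and for these the mark at the gene end cannot be told apart from that of the neighbour.

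Upstream, the regions covered the terminal exon as a rule. For 1127 of the 1179 genes a coding transcript ended at the gene end, and in 906 of these (80.4%, 78.0 to 82.6%) the region spanned the whole last exon. The upstream edge lay in the last exon in 221 (19.6%), in the last intron in 345 (30.6%) and further upstream in 561 (49.8%). The stop codon was inside the region in 937 (83.1%, 80.8 to 85.2%). A region of at least 600 bp that stops in the bin of the gene end must cover a short last exon and any stop codon in it. The last exons of these genes had a lower quartile of 347.5 bp and a median of 656 bp. Both shares are thus raised by the minimum width, by an amount that was not tested. A single exon was touched in 566 genes (50.2%), and 4 or more in 225 (20.0%). By base pairs, 28.4% of the 2.79 Mb in gene-end regions was untranslated exon, 19.6% coding sequence and 43.0% intron, against 5.21%, 12.6% and 78.2% in the other regions of at most 5 kb. The excess of untranslated sequence follows from the rule, since each region had to contain a gene end, and the coding share was also higher. The median G+C content was 50.3% (quartiles 45.7 and 54.1%), against 46.6% in the other short regions and 50.4% in the wide regions at gene ends. It was higher than in the other short regions on 18 of 19 autosomes, and on chromosome 12 both medians were close to 46.2%.

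Among the widest regions, those at short genes named here took in most of the gene, and those at longer genes did not. The 5000 bp region at Cyb5r1, a cytochrome b5 reductase, covered 6 of 9 exons and 82.5% of the gene, and that at Nfkbid, an IκB family regulator of NF-κB, covered 9 of 12 exons and 70.8% of the gene. At Stau1, an RNA-binding protein that binds double-stranded RNA, a region of the same width covered 6 of 12 exons but, with 1 further region, only 11.4% of a gene of 48751 bp. At 2310022A10Rik, a gene of 28800 bp, the 5000 bp region covered 2 of 10 exons, and all 10 regions of the gene together covered 55.9% of it. At the other extreme, the 600 bp region at Tdgf1 began in the last exon.

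Whether the mark reached the annotated gene end went with the length of the last exon, which the rule did not use. Bins were selected by the authors on UCSC genes, whereas ends and last exons here are those of GENCODE, and sequence of a last exon beyond the UCSC end of a gene could not be listed. How far the annotations differ was not tested. Genes with their end in a gene-end region had a median last exon of 634 bp, against 864 bp for ends in wider regions, 1522 bp for genes marked in the body but not at the end, and 1002 bp over all genes. Among the H3K36me3-marked genes with a last exon of up to 500 bp, 35.9% (33.5 to 38.3%) had the end in a gene-end region and 53.0% (50.5 to 55.5%) had it in any region. For last exons above 500 and up to 1000 bp the shares were 26.6% and 43.0%, and above 1000 and up to 2000 bp they were 15.5% and 25.2%. Beyond 2000 bp they were 6.05% (5.10 to 7.17%) and 9.62% (8.42 to 11.0%). Each step down was larger than the counting intervals, for gene-end regions and for any region alike.

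The order of these 4 exon classes was the same within each class of gene length and of gene neighbourhood. In marked genes under 10 kb, the share with the end in any region fell from 70.3% for the shortest last exons to 17.4% for the longest. In genes of 10 to 30 kb it fell from 50.8% to 12.2%, and in genes over 30 kb from 30.6% to 6.34%. In genes without a neighbour ending within 2 kb on the other strand it fell from 42.6% to 6.46%, and in genes with such a neighbour from 76.8% to 28.0%. At a given exon class, shorter genes and genes with such a neighbour had the higher shares. Expression is not part of these files.

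**Figure D2:**
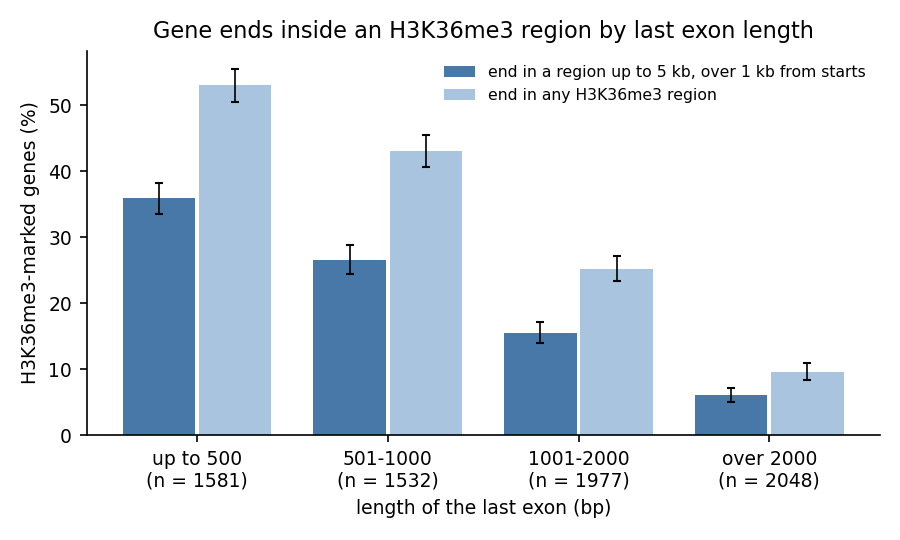
Share of H3K36me3-marked autosomal protein-coding genes (%) whose end lay in one of the gene-end regions (dark bars) or in any H3K36me3 region (light bars), by the length of the last exon (bp); error bars are 95% Wilson intervals and n is the number of marked genes. The share falls at each step, from 53.0% to 9.62% for any region.

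In the 5213 genes marked in the body but not at the end, the last region stopped a median of 1823 bp before the end (quartiles 588 and 5445 bp). It came within 1 kb of the end in 35.2% (33.9 to 36.5%). In 54.0% (52.6 to 55.4%) of the 4945 with a coding transcript to the gene end, the mark stopped inside the last exon. Among the 26 marked pluripotency genes, 16 were marked only in the body (61.5%, 42.5 to 77.6%), against 69.1% of all marked genes.

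The profile along longer genes describes both groups. In 706 genes of at least 10 kb with the end in a region of their own, 45.9% had the mark in the bin 9 kb before the end, 56.9% at 3 kb, 64.0% at 2 kb and 74.9% at 1 kb, and 19.7% had it 1 kb past the end. Each region held the end and was at least 600 bp wide, so the rule raises the bins nearest the end most, and further bins as far as the regions reached. In 4366 genes marked only in the body, the share was 37.2% at 4 kb before the end and 27.0% at 1 kb. These genes were chosen for an end outside every region, so their curve must fall to 0 there, and nothing is read from the contrast between the curves near the end. H3K9me3 lay in 2.69% of the bins 9 kb before the ends in gene-end regions, in 6.23% at 1 kb before them and in 0.850% at 1 kb past them. At 1 kb before and 1 kb past the end, it lay in 5.24% and 2.62% for ends in wider regions. In genes marked only in the body the shares were 3.46% and 1.10%. Bins outside genes were not listed for H3K9me3 either, so a lower share past the end is partly built in for each group.

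**Figure D3:**
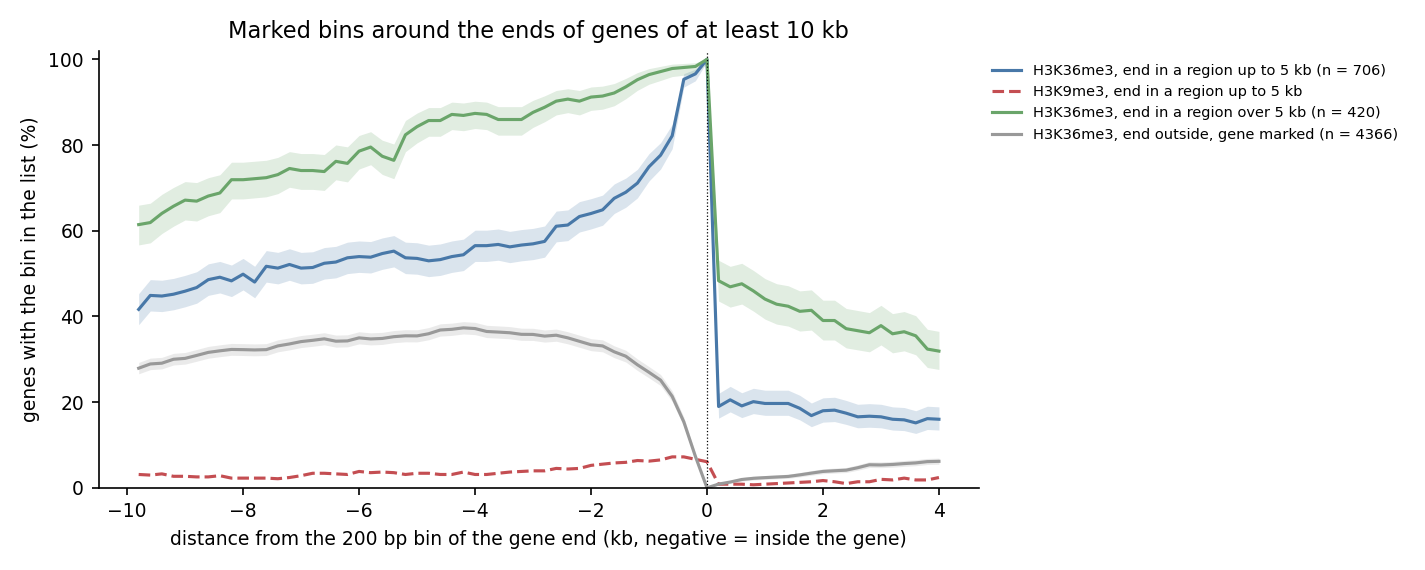
Share of genes (%) with the 200 bp bin in the H3K36me3 list (solid lines, shading for 95% Wilson intervals) or, for genes ending in a region of at most 5 kb, in the H3K9me3 list (dashed), by distance from the bin of the gene end (kb), for genes of at least 10 kb. At 1 kb before the end, 74.9% of the 706 genes with a gene-end region and 27.0% of the 4366 genes marked only in the body had the bin in the H3K36me3 list.

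Most gene-end regions were the last of several in the gene. Of the 1179, 838 (71.1%, 68.4 to 73.6%) had another H3K36me3 region upstream in the same gene, 704 of them within 2 kb (59.7%, 56.9 to 62.5%) and 393 at a gap of 1 bin (33.3%). The next region lay a median of 400 bp away, and these genes held a median of 4 regions. Rif1, a regulator of replication timing with 36 exons, had the most regions among the listed genes with the end in a gene-end region. Its 17 regions covered 76.1% of its length, and the last (chr2:51976601-51978000) began in the last exon and stopped 97 bp past the end. Brd1, a bromodomain and PWWP protein that binds H3K36-methylated chromatin, had 14 regions over 76.0% of the gene, and its end region (chr15:88517601-88522600) touched 5 exons. In the other 341 genes (28.9%, 26.4 to 31.6%) the end region was the only one. These genes were shorter, with a median of 4777 bp against 17828 bp, whereas the median width of the region was 1800 bp in both. Pou5f1 was of this kind: its single region (chr17:35645801-35647800) covered 4 of 5 exons and 40.5% of the gene, and stopped 79 bp past the end.

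In 4 other pluripotency genes with the end in a gene-end region, H3K36me3 covered between 39.9% and 53.2% of the gene. Nanog, a homeodomain factor of the pluripotency network, had 3 regions over 39.9% of the gene. The last (chr6:122663801-122664800) began in the last exon and stopped 149 bp past the end. Tdgf1, the Nodal co-receptor also called Cripto, had 3 regions over 53.2%, ending in chr9:110842001-110842600. Nodal itself, a TGF-β family ligand, had 2 regions over 44.6%, and the last (chr10:60885601-60888200) took in 2 of 3 exons. Dnmt3l, the cofactor of the de novo DNA methyltransferases, had 7 regions over 49.7% and a region of 2200 bp at its end (chr10:77524201-77526400). Dppa3, Dppa5a and Lin28b carried no H3K36me3 region.

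Among 42 gene models of RNA polymerase II and transcription elongation, 8 had the end in a gene-end region, 9 in a wider region, 2 in a region near a start and 18 were marked only in the body, while 5 carried no region. Cdc73, a PAF complex subunit, has 2 of these models, 1 marked in the body and 1 of 1447 bp without the mark. The 8 were 19.05% of the list (9.98 to 33.3%), against 6.97% of all genes, and 21.6% of its 37 marked models (11.4 to 37.2%), an interval that contained the 19.8% of all marked genes. The 8 were the polymerase subunits Polr2d, Polr2f, Polr2g, Polr2h and Polr2l, the NELF subunit Cobra1, the DSIF subunit Supt4h1 and the PAF complex subunit Wdr61. The polymerase subunit genes were short, from 3273 bp (Polr2l) to 10424 bp (Polr2f), and their end regions were 600 bp (Polr2h, chr16:20721801-20722400) to 2400 bp wide (Polr2g, chr19:8867601-8870000). Polr2g was marked over 5 of 8 exons by that region alone. At Wdr61 (chr9:54562201-54562800), the region ran 341 bp past the end, where another gene was annotated.

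The 30 genes of 3′ end processing and termination, the machinery that acts at these ends, all carried H3K36me3, 24 of them only in the body (80.0%, 62.7 to 90.5%, against 69.1% of all marked genes). The end lay in a wider region at Cpsf1, Cpsf4 and Pabpc1 and in a region near a start at Ppp1ca. Cpsf3l, the endonuclease of the Integrator complex, and Pabpn1, the nuclear poly(A)-binding protein, had the end in a gene-end region, and these 2 of 30 (6.67%, 1.85 to 21.3%) lay close to the 6.97% of all genes. Since all 30 were marked, the like share is the 19.8% of marked genes, which was higher but inside the interval. The Cpsf3l region (chr4:155260601-155264000) also held the end of Pusl1 on the other strand. The Pabpn1 region (chr14:55514401-55517200) covered 5 of 7 exons and was shared with the overlapping model Gm20521. Of 29 genes that write, read or erase H3K36 methylation, 2 had the end in a gene-end region, 5 in a wider one, 1 in a region near a start, 18 were marked only in the body and 3 not at all. The share was 6.90% of the list (1.91 to 21.96%), against 6.97% of all genes, and 7.69% of its 26 marked genes (2.14 to 24.1%), against 19.8% of all marked genes, which lay inside that interval. Besides Brd1 this was Psip1, the PWWP reader also known as LEDGF, but its region (chr4:83100601-83101600) held only 16 bp before the end and 983 bp past it, where another gene was annotated.

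**Figure D4:**
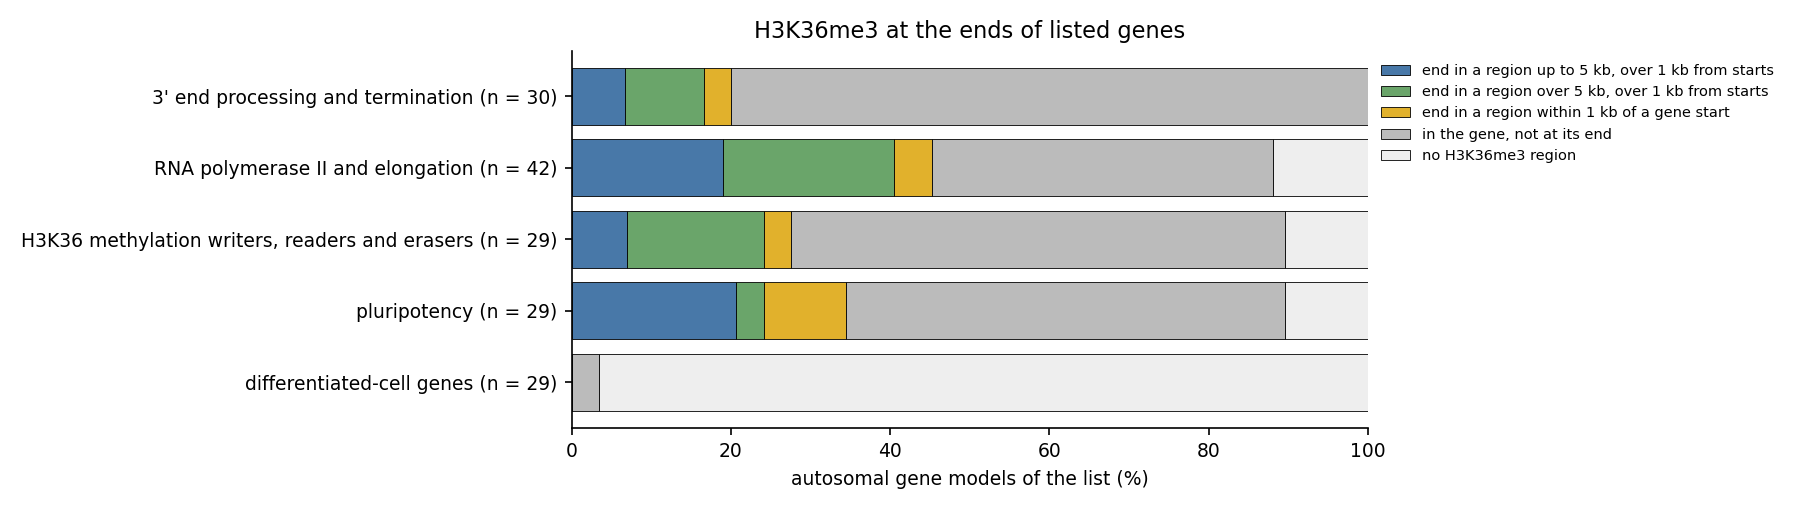
Share of the autosomal gene models on each of 5 lists (%) by where H3K36me3 lay, with n the number of models. Of 29 pluripotency genes 6 had the end in a gene-end region, of 42 polymerase and elongation models 8, of 30 genes of 3′ end processing 2, and of 29 genes of differentiated cells 0.

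Several families of housekeeping genes had marked ends more often than the 6.97% of all genes. Of 51 proteasome genes (symbols starting with Psm), 15 had the end in a gene-end region (29.4%, 18.7 to 43.0%), among them the core subunits Psma7, Psmb1 and Psmb7 and the regulatory ATPases Psmc2 and Psmc4. Of 77 mitochondrial ribosomal genes (Mrpl and Mrps), 19 had one (24.7%, 16.4 to 35.4%), and of 41 genes with Nduf symbols, most of which encode subunits or assembly factors of mitochondrial complex I, 10 (24.4%, 13.8 to 39.3%). Of 74 cytoplasmic ribosomal genes (Rpl and Rps), 17 had one (23.0%, 14.9 to 33.7%). A further 39 of these 74 had the end in a region within 1 kb of a start, 0 in a wide region far from starts, and 5 had no mark. Among the marked genes of each family, the share was 36.6% (23.6 to 51.9%) of 41 proteasome genes and 31.7% (21.3 to 44.2%) of 60 mitochondrial ribosomal genes, both above the 19.8% of all marked genes. It was 30.3% (17.4 to 47.3%) of 33 Nduf genes and 24.6% (16.0 to 35.96%) of 69 cytoplasmic ribosomal genes, with intervals that contained 19.8%. Solute carriers (22 of 343, 6.41%) and Zfp zinc finger genes (22 of 362, 6.08%) lay near the share of all genes. Of the marked genes these were 18.3% (12.4 to 26.2%) and 10.9% (7.30 to 15.9%), so that marked Zfp genes were below the 19.8%. In olfactory receptors (1106 genes), vomeronasal receptors (327), keratins (100) and histone genes (67) no end lay in a gene-end region. The rule bars genes of up to 1 kb from having one, and how many of these genes are that short was not tested, so nothing is read from these counts. No H3K36me3 region at all touched 1105 of 1106 olfactory receptors, 327 of 327 vomeronasal receptors, 99 of 100 keratins and 67 of 67 histone genes. Multi-copy families can share reads, and the authors' alignment allowed more than 1 position per read.

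The ribosomal genes illustrate the geometry. The region at Rpl7 (chr1:16091201-16093600) covered 6 of 7 exons and 66.1% of the gene, and that at Rps10 (chr17:27767201-27772000) covered 5 of 6 exons and 74.6%. Rpl22, with a last exon of 1792 bp, had a region of 800 bp (chr4:151707401-151708200) that began inside that exon and stopped 20 bp past the end. The Rps2 region (chr17:24858201-24859600) also held the end of Ndufb10, a complex I subunit, on the other strand, and the Rpl31 region (chr1:39427001-39430400) held that of Tbc1d8.

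Neighbouring genes that end towards each other shared many of these regions. Of the 1333 regions, 154 (11.6%, 9.95 to 13.4%) held more than 1 gene end and 144 (10.8%, 9.25 to 12.6%) held ends on both strands. A region at chr17:47820801-47823800 held 4 ends, of Med20, a Mediator subunit, Tomm6, a subunit of the mitochondrial import pore, Usp49, a deubiquitinase, and Prickle4. A region of 800 bp at chr2:121264001-121264800 held those of Pdia3, Ell3 and Serinc4, and one at chr9:108958601-108961400 those of Shisa5, Atrip and Trex1. Of the 1492 genes, 601 (40.3%, 37.8 to 42.8%) had a neighbour that ended within 2 kb on the other strand, against 13.9% of the genes marked only in the body, 7.61% of the genes without the mark and 12.9% of all genes. In the wide regions at gene ends the share was 49.8%. Where 1 region held both ends of a pair, both genes were counted, so the genes are not independent and the intervals do not allow for this. Bins past an end could be listed only where another gene lay, and the part of this in the differences was not tested. The gene pairs with an end in a gene-end region numbered 392, and in 144 of them both ends lay in that region. This was the case in 96 of 143 pairs whose models overlapped (67.1%), in 34 of 44 with a gap of at most 200 bp (77.3%) and in 14 of 205 with a gap above 200 and up to 2000 bp (6.83%, 4.11 to 11.1%). Among these pairs, which were limited to ends within 2 kb of each other, the widest gap with both ends in 1 region was 387 bp. A gap that holds a whole 200 bp bin could not be bridged unless another model touched that bin, since only bins touching genes were listed.

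H3K9me3 was no more frequent at the gene-end regions than elsewhere. It overlapped 101 of 1333 (7.58%, 6.28 to 9.12%), against 8.63% of all autosomal H3K36me3 regions of at most 5 kb and 8.66% (8.34 to 8.99%) of the others of that size. The share was 16.4% in the wide regions at gene ends (13.2 to 20.2%) and 16.4% in the other wide regions and so was higher in wide regions of both kinds. Within width classes it was 6.16% against 7.36% at 600 bp, 3.62% (1.85 to 6.98%) against 7.93% (7.35 to 8.54%) at 800 to 1000 bp, 6.47% against 8.70% at 1200 to 2000 bp, 10.4% against 11.7% at 2200 to 3000 bp and 10.2% against 12.8% at 3200 to 5000 bp. The gene-end regions had the lower share in all 5 classes, but the intervals were apart only at 800 to 1000 bp. By chromosome, they had the lower share on 11 of 19 autosomes. Where H3K9me3 was present, it covered a median of 66.7% of the region, and 29 of the 101 regions lay wholly inside it.

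Zinc finger genes stood out among the regions that carried both marks. Of 27 regions at genes named Zfp, Zscan, Zbtb or Zkscan, 8 overlapped H3K9me3 (29.6%, 15.9 to 48.5%), against 93 of the 1306 others (7.12%, 5.85 to 8.65%). The genes were matched by a motif as well as by name, since many zinc finger genes have other names. Tandem C2H2 zinc fingers are joined by a conserved linker peptide, and the motif ACNGGNGANAANCC, searched on both strands, spells part of the codons for it. It was found in 23 of the 1333 regions (1.73%, 1.15 to 2.58%), in 0.826% of all autosomal H3K36me3 regions of at most 5 kb and in 3.51% of the wide regions at gene ends. Longer regions offer more places for a match, and the part of width in these shares was not tested.

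The following lines show 30 bases around the motif (capitals) from 5 of the 11 gene-end regions that held it and overlapped H3K9me3, on the strand that matched.

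Zfp13: gtacgcacACGGGCGAGAAGCCttatacct

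Zfp146: aaattcacACTGGAGAGAAACCttttgagt

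Zfp263: gcacccacACAGGGGAAAAGCCcttccagt

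Zfp810: ggacccacACCGGTGAGAAGCCttatgact

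Rex2: gaattcatACAGGAGAGAAACCttataaat

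The Zfp13 site is at chr17:23713677-23713706 (minus strand), the Zfp146 site at chr7:30947331-30947360 (minus), the Zfp263 site at chr16:3749183-3749212 (plus), the Zfp810 site at chr9:22083421-22083450 (minus) and the Rex2 site at chr4:145887630-145887659 (plus). Of the 23 regions with the motif, 11 overlapped H3K9me3 (47.8%, 29.2 to 67.0%), against 90 of the 1310 without it (6.87%, 5.62 to 8.37%). In the other regions of at most 5 kb the shares were 25.5% (20.1 to 31.7%) with the motif and 8.53% without, so the difference was present away from gene ends as well, and the interval for the 23 overlapped that of the 216 others with the motif. Besides the genes shown, the 11 were Zfp498, Gm14139, Gm14412, Gm13251, Gm6871 and EU599041. The 12 regions with the motif and no H3K9me3 were at Zbtb48, Zfp637, Zfp420, Zfp82, Zfp317, Zfp692, Zfp870, Zfp955a, Ifi30, Snai3, Dnmt3l and Xpo5. Of the last 4 only Snai3 encodes a C2H2 zinc finger protein, so a match to these letters does not by itself mark such a gene.

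**Figure D5:**
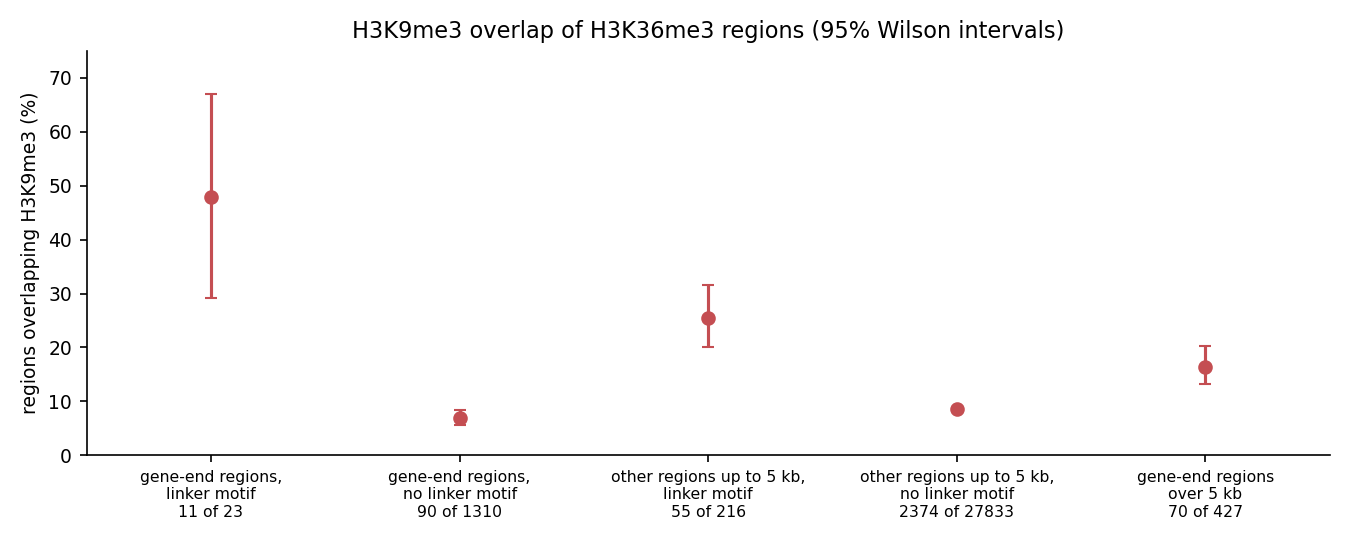
Share of H3K36me3 regions (%) that overlapped an H3K9me3 region, for gene-end regions and other regions of at most 5 kb with and without the linker motif, and for wide regions at gene ends; bars are 95% Wilson intervals. The 23 gene-end regions with the motif reach 47.8%, and the 1310 without it 6.87%.

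The extent of H3K9me3 in these regions differed from gene to gene. At Zfp13 (chr17:23712801-23714800), a gene the study uses as an example, H3K9me3 covered the whole region of 2000 bp, which held the last exon and stopped 10 bp past the end. At Gm13251 the region of 3800 bp (chr4:145727601-145731400) was covered wholly as well, and with 5 regions H3K36me3 covered 88.7% of the gene. At Zfp810 (chr9:22082601-22084000) all 1400 bp were covered. At Zfp146 (chr7:30946201-30949200) H3K9me3 overlapped 800 of 3000 bp, at Zfp263 (chr16:3748001-3750800) 800 of 2800 bp and at Zfp498 (chr5:146047801-146052400) 1400 of 4600 bp. Zfp777 (2000 of 2000 bp), Zfp534 (1800 of 1800 bp) and Zscan20 (600 of 600 bp) were covered wholly without holding the motif in the region. At Zfp534, 589 bp of the region lay before the gene end and 1210 bp past it, where another gene was annotated. At Hn1, another gene followed by name, the end also lay in such a region (chr11:115358601-115361400), and there H3K9me3 was not listed. The Gm genes and Rex2 belong to families with near-identical copies, so reads placed at them may come from another copy.

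By chromosome, the share of protein-coding genes with the end in a gene-end region was highest on chromosome 8 (10.6%, 8.93 to 12.6%) and chromosome 19 (10.2%, 8.22 to 12.6%) and lowest on chromosome 13 (3.58%, 2.53 to 5.04%). The first and last of these intervals did not overlap, but these chromosomes were picked as the extremes of 19 autosomes. As a share of the H3K36me3 regions of the chromosome, gene-end regions were most frequent on chromosome 19 (6.47%). They were 5.01% on chromosome 8 and 2.69% on chromosome 13. The median G+C content of the gene-end regions was 51.9% on chromosome 8, 52.7% on chromosome 19 and 47.1% on chromosome 13.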

How the data were processed

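According to the study's methods, the authors aligned ChIP-seq reads with Bowtie to mm9, removed duplicates, counted reads in 200 bp bins, matched the distributions of WT and G34R, kept high bins of either cell type that touched UCSC genes and joined neighbouring bins with BedTools; per the labels the versions were Bowtie 1.0.0 and bedtools 2.20.1. The deposited lists hold chromosome, start and end only. The methods also state that joined regions above 500 bp were left out, whereas every listed region is 600 bp or wider, so the size filter cannot have acted as stated, and the widths given are those in the lists. Bins outside genes were never listed, and reads with several positions could be kept. Depth is unknown.

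Gene ends, starts, exons and neighbours came from GENCODE vM1 (the outermost end of each protein-coding gene), and sequence from NCBIM37. Exon values came from a coding transcript that reached the gene end. Shares carry 95% Wilson intervals (Python 3.11.15, NumPy 2.4.6, matplotlib 3.10.9). The region finder was tested on simulated data. No test between groups was possible, since both genotypes are pooled in 1 list. The regions and gene lists were chosen with earlier results of these data known. Named genes were those of the lists, 12 example genes (not all named in the study's text), zinc finger and ribosomal genes, and the regions that were widest, reached farthest or held most ends. Chromosomes X and Y were not used here.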

Additional observations from a re-analysis of the deposited data

How the results depend on the processing

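No paired analysis was possible because the lists pool both genotypes and carry no replicate. The 1333 regions became 3067 when the ends of all protein-coding transcripts were used in place of the outermost gene end, and the share of genes with a marked end then rose from 6.97% to 12.9% (9.54% with no width limit). Regions with several ends fell from 11.6% to 6.85% of the total with all transcript ends. The median width was 2400 bp without the width limit. The median extension past the end (134 bp) was 105 bp in regions with 1 gene end, 90 bp with no other gene within 5 kb and 180 bp from the most upstream transcript end in the region. The H3K9me3 overlap of 7.58% was 4.35% when H3K9me3 had to cover at least 50% of the region, and 9.68% when it could lie within 1 kb. The poly(A) signal share of 72.6% was 59.0% for AATAAA alone, 59.5% in the last 30 bases and 75.3% in the last 100, where all genes had 54.0%, 57.7% and 68.9%. In the last 30 bases the interval of the gene-end regions (56.9 to 61.9%) contained the share of all genes. In the other settings the share of all genes lay below the interval. A further region upstream was present in 66.8% within 5 kb and 71.1% anywhere in the gene, against 59.7% within 2 kb. Apart from the share of regions with several ends and the extension past the end, these moves follow from the wider or narrower definitions themselves. The smaller difference from all genes for poly(A) signals in the last 30 bases is not such a move, and its reason was not tested. Regions with several ends numbered 154 as reported and 210 with all transcript ends, and why their share fell was not tested. The number of regions was within 1.5 times the reported one under every other alternative, from 1038 (width limit of 3000 bp) to 1760 (no limit), and from 1197 to 1306 on leaving out any 1 autosome. Region edges are known to 200 bp at best.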
